A study of Mus musculus with 2 samples.

Results

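Mir21a, Mir22 and Mir31 are 3 microRNA genes known from growth, bone, and tooth or palate epithelium. They were chosen by name, as single-copy genes, and all 3 were found among the 1973 genes of the count tables. Their levels were measured by small-RNA sequencing of total RNA, in a size range under 30 bases, from the facial prominences of B6NCrl mouse embryos of day 11.5. The facial prominences are the outgrowths of neural crest mesenchyme under a sheet of ectoderm that form the jaws, nose and palate. There was 1 group of 2 libraries: replicate 1 pooled tissue of 109 embryos and replicate 2 tissue of 88 embryos, healthy and of both sexes, with no treatment and no altered gene named in the labels. Both libraries carry the same donor entry.

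A microRNA gene is transcribed as a longer RNA that folds into a hairpin, from which 2 strands of about 22 bases, the 5p and 3p arms, can be cut. The arm that is loaded into an Argonaute protein represses messenger RNAs that pair with its seed, bases 2 to 8. Mir21a encodes miR-21, which is induced by growth signals and represses growth brakes such as Pdcd4. Mir22 encodes miR-22, known from osteogenic differentiation and from heart muscle growth. Mir31 encodes miR-31, known from keratinocytes, hair follicles and dental epithelium, and represses the bone regulator Runx2.

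The mature sequences are shown because their seeds define what each gene could pair with and whether another gene could stand in for it. They are from RefSeq (GRCm38.p6), 5′ to 3′, with the seed in capitals, and all 3 genes were matched by symbol.
miR-21a-5p: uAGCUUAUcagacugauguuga
miR-21a-3p: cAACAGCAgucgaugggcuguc
miR-22-5p: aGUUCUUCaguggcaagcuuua
miR-22-3p: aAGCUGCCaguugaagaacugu
miR-31-5p: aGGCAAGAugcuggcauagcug
miR-31-3p: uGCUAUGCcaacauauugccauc

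No seed was shared among the 3 genes. Of the 1738 mature sequences in the RefSeq table, only miR-21c had a seed of these genes, that of miR-21a-5p, and the other 5 arms had no partner. The tables hold 257 genes with a mean count of 100 or more, of which 239 have a mature sequence in that table. Of the 239, 106 (44.4%) shared a seed with another of them, and none of the 3 genes did. The count tables give 1 value per gene, so the 5p and 3p arms are not told apart in any value below.

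The relatives of Mir21a are shown with it because reads from a near-identical copy could be lost from its count.
miR-21b: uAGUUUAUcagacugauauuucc
miR-21c: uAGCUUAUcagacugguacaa

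Counted from 1 at the 5′ end of miR-21a-5p, the first base at which miR-21b differs is C4U, within the seed, and the first at which miR-21c differs is A16G. The longest run that miR-21a-5p shares with them is 13 bases for miR-21b and 15 bases for miR-21c. Mir21b had 0 counts in replicate 1 and 1 count in replicate 2, and Mir21c had 0 counts in both. A count of 0 allows a level of up to 1.55 CPM (counts per 1000000 sense counts at microRNA genes) in replicate 1 and 1.29 CPM in replicate 2, and this limit covers counting error only.

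Each hairpin was compared on both strands with the 1004 other hairpins of the table. None had an exact copy. The longest run shared with another hairpin was 15 bases for Mir21a, 13 for Mir22 and 12 for Mir31, all shorter than a mature arm. The hairpins of Mir22 and Mir31 are shown with their 2 arms in capitals, since the exons described next carry them whole.
Mir22 hairpin: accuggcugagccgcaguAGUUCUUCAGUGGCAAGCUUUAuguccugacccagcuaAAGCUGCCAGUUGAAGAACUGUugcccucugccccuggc
Mir31 hairpin: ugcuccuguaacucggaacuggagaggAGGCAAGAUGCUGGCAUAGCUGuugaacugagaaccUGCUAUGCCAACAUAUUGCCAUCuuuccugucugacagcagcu

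All 3 genes lie inside an exon of a longer gene on the same strand (positions in mm10, genes from GENCODE M21). Mir21a (ENSMUSG00000065455.1, chr11:86584067-86584158, minus strand) lies in exon 12 of 12 of Vmp1, a membrane protein of the endoplasmic reticulum that acts in autophagy, within the annotated 3′ UTR. Mir22 (ENSMUSG00000065529.1, chr11:75463716-75463810, plus strand) lies in exon 2 of both transcripts of its noncoding host gene Mir22hg, and in exon 2 of a noncoding transcript of the overlapping gene Tlcd2. Mir31 (ENSMUSG00000065408.1, chr4:88910557-88910662, minus strand) lies in exon 3 of 3 of the long noncoding RNA gene AL805899.1. Mir21a and Mir22 are on the same chromosome but 11.1 Mb apart. The nearest other protein-coding genes are Tubd1 at 16.7 kb from Mir21a, Wdr81 at 9.0 kb from Mir22 and the interferon gene Ifne at 30.4 kb from Mir31.

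None of the 3 is part of a microRNA cluster. The nearest microRNA gene of the tables on the same strand was 823 kb away for Mir21a, 87.6 kb for Mir22 and 2463 kb for Mir31, and each of those neighbours had 0 counts in both libraries.

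The 3 genes were expressed at very different levels, with Mir21a above Mir22 and Mir22 above Mir31 in both libraries. Their summed share of the sense counts was 1.28% in replicate 1 and 1.17% in replicate 2, a mean of 1.22% ± 0.0741 (SD, n = 2). All 3 reached 10 counts in both libraries, as 17.8% of the 1973 genes did. Reads placed at several positions, 22.7% and 20.5% of the reads of the libraries, are in no gene's count, so a gene whose mature arm is also made by a copy elsewhere can be undercounted, and the places given below are places among these counts. In bulk tissue, fewer cells that express a gene and less of its RNA per cell cannot be told apart.

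Mir21a had 16751 counts in replicate 1 and 17984 in replicate 2, which are 8627 CPM (95% exact interval 8497 to 8758) and 7752 CPM (7640 to 7866). Its mean was 8189 ± 618 CPM (SD, n = 2), place 32 of all genes, and 90.9% of the 351 detected genes were below it. Replicate 1 was the higher library, and the counting intervals did not overlap. Mir21a held place 29 in replicate 1 and place 39 in replicate 2, in a part of the order where levels lie close: 11 other genes had ranges over the 2 libraries that overlapped its own.

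Mir22 had 7166 counts in replicate 1 and 8367 in replicate 2, equal to 3690 CPM (3606 to 3777) and 3607 CPM (3530 to 3685). The intervals of the libraries overlapped. The mean was 3649 ± 59.3 CPM (n = 2), place 56, with 84.0% of the detected genes below it, and 1 other gene had an overlapping range.

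Mir31 had 848 counts in replicate 1 and 805 in replicate 2, equal to 437 CPM (408 to 467) and 347 CPM (323 to 372). The mean was 392 ± 63.4 CPM (n = 2), place 148, and 57.8% of the detected genes were below it. The libraries' intervals did not overlap, with replicate 1 higher, and 18 other genes had ranges that overlapped that of Mir31. Even this lowest of the 3 stood above the median of the detected genes, 192 CPM.

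**Figure D1:**
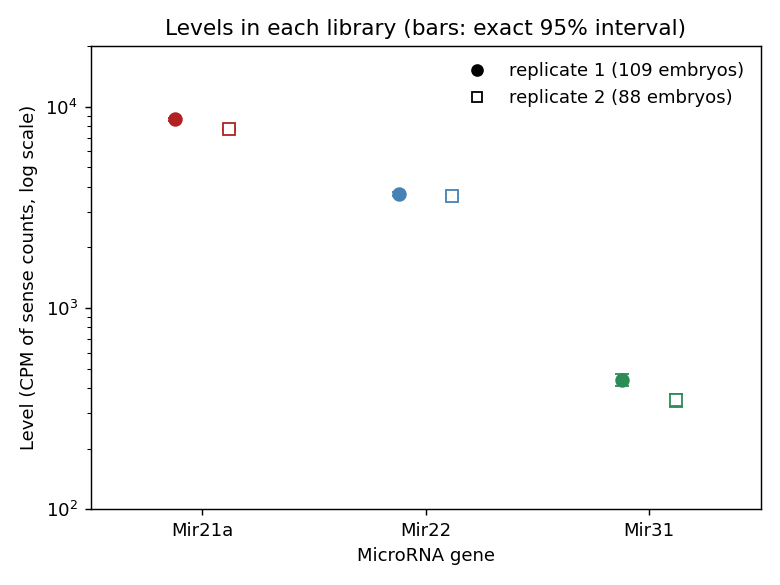
Level of each gene in each library (CPM, log axis), with filled circles for replicate 1, open squares for replicate 2 and bars for the exact 95% interval of counting error, which is mostly smaller than the symbol. The genes do not overlap: Mir21a lies at 7752 to 8627 CPM, Mir22 at 3607 to 3690 CPM and Mir31 at 347 to 437 CPM.

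**Figure D2:**
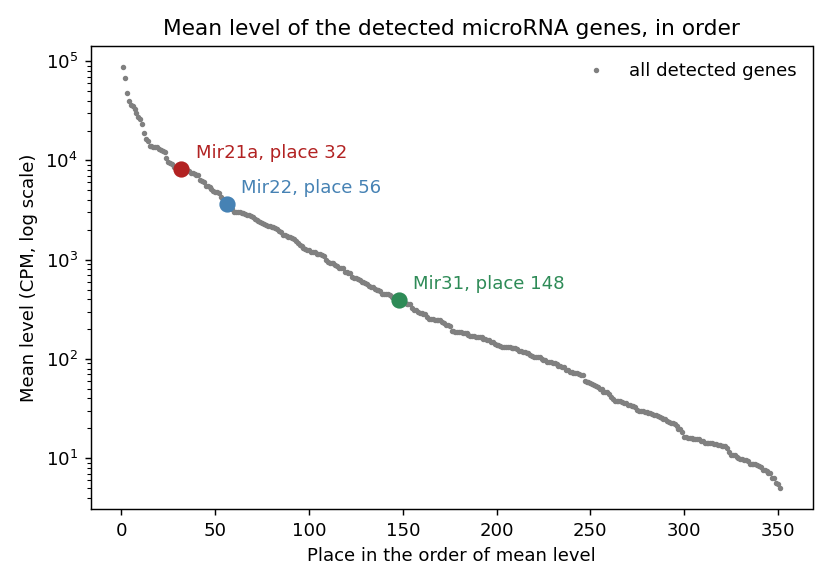
Mean level (CPM, log axis) of the 351 detected genes in descending order, 1 grey point per gene. Mir21a, Mir22 and Mir31 stand at places 32, 56 and 148.

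The pairs were then compared within each library. Mir21a exceeded Mir22 by a log2 ratio of 1.23 (1.19 to 1.27) in replicate 1 and 1.10 (1.07 to 1.14) in replicate 2, a mean of 1.16 ± 0.09 (SD, n = 2), or 2.24-fold. Mir22 exceeded Mir31 by 3.08 (2.98 to 3.18) and 3.38 (3.27 to 3.48), a mean of 3.23 ± 0.21, or 9.37-fold. Mir21a exceeded Mir31 by 4.30 (4.20 to 4.41) and 4.48 (4.38 to 4.59), a mean of 4.39 ± 0.13, or 21.01-fold. In each library all 3 differences were larger than the log2 ratio between the pools of either gene, which was at most 0.33. The counting intervals of the libraries overlapped for Mir21a over Mir31 and not for the other pairs. With 2 libraries no two-sided exact test can go below p = 0.5, so no p is given. Differences between genes of 1 library also carry how well each RNA is ligated and amplified, which was not tested.

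Against the top of the profile the genes were modest. The most abundant gene, Mir335 of the imprinted Mest gene, exceeded Mir21a 10.7-fold, Mir22 23.9-fold and Mir31 224-fold. Mir17, the second in order, exceeded them 8.21-fold, 18.4-fold and 173-fold. These folds are from the mean log2 ratio over the 2 libraries.

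The pools differed little in these genes. Mir21a was lower in replicate 2 by a log2 ratio of -0.15 (95% exact interval -0.18 to -0.12), Mir22 by -0.03 (-0.08 to 0.01) and Mir31 by -0.33 (-0.47 to -0.19). As changes of the level, these are -10.1%, -2.27% and -20.5%. The interval of Mir22 includes 0 and those of Mir21a and Mir31 do not, but they cover counting error only.

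The spread of all genes gives the scale for these ratios. A difference of more than 2-fold between the pools was found in 5 (1.95%) of the 257 genes that averaged 100 counts or more, and in 0 of the 3 genes. The median absolute log2 ratio of the 257 genes was 0.14. A ratio at least as large as that of Mir21a was seen in 45.9% of them, as that of Mir22 in 88.7%, and as that of Mir31 in 14.4%. Mir22 lay below that median, Mir21a just above it, and Mir31 above it but below 0.39, which 90% of the genes did not exceed. All 3 genes were lower in replicate 2, as were 127 of the 257 genes (49.4%). Per read of the whole library instead of per sense count, the median gene was shifted by -0.26 and 222 of 257 (86.4%) were lower, so only ratios relative to the other genes are read here.

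**Figure D3:**
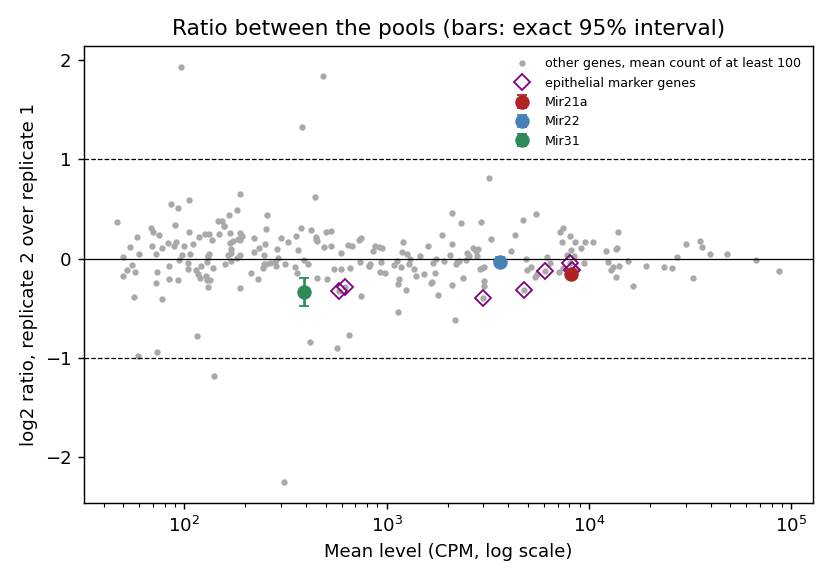
Log2 ratio of replicate 2 over replicate 1 against mean level (CPM, log axis) for the 257 genes with a mean count of at least 100; dashed lines mark 2-fold and bars the exact 95% interval of counting error. Mir21a, Mir22 and Mir31 lie inside the dashed lines at -0.15, -0.03 and -0.33. Mir31 lies beside the epithelial markers of like level, Mir200a at -0.33 and Mir141 at -0.28. This is not particular to epithelial genes: the neural marker Mir137 is at -0.32. A ratio at least as large as that of Mir31 was seen in 14.4% of the 257 genes.

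Epithelial marker genes were lower in replicate 2 as well. All 7 of the 7 markers on the list (Mir200a, Mir200b, Mir200c, Mir141, Mir429, Mir205, Mir203) were lower there, from -0.40 to -0.04 with a median of -0.28, beside a median of 0.01 over the 257 genes. Mir200a, Mir200b and Mir429 are neighbours in the genome, as are Mir200c and Mir141, so the 7 are not independent of each other. Nearest to 0 were Mir205, Mir429 and Mir203, at -0.04, -0.11 and -0.13. Mir200a, Mir200b, Mir200c and Mir141 were at -0.33, -0.40, -0.32 and -0.28. Their summed level was 3.31% of the sense counts in replicate 1 and 2.95% in replicate 2, and none was at 0. All 7 mesenchymal markers were detected. Of the 6 that averaged 100 counts or more, 4 were higher in replicate 2, with a median of 0.12 and summed levels of 5.25% and 5.58%. Markers of striated muscle summed to 0.0628% and 0.149%, with Mir133a-1 and Mir133a-2 at 0, and those of red blood cells to 0.0264% and 0.0593%. Leukocyte markers summed to 0.0564% and 0.0672%, with Mir142b at 0, neural markers to 0.158% and 0.130%, with Mir124a-3 at 0, and the endothelial marker Mir126a took 3.90% and 4.04%. These sums cover only the listed markers that were found by symbol. Found were 4 of 5 for leukocytes, where Mir142 was missing, and 2 of 4 for red blood cells. For muscle and for neural cells 8 of 9 were found. Of the 8 neural markers in the tables, 7 are numbered copies, as are 2 of the 8 muscle markers and 2 of the 7 mesenchymal markers. The sums and zeros of these 3 lists lack any reads placed at several positions. The muscle marker Mir1a-1 is not counted as a copy, since the listed Mir1a-2 was not found by symbol. Among markers that averaged 100 counts or more, the 2 neural ones were also lower in replicate 2, with a median of -0.20. Higher there were all 3 of muscle, 2 of leukocytes and 1 of red blood cells, and Mir126a. The part of these cell types in the ratios of the 3 genes was not tested.

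Mir31 was set against each epithelial marker within the libraries. Its level was nearest to Mir200a and Mir141, members of the Mir200 family that maintains epithelial identity. Mir200a exceeded Mir31 1.48-fold in replicate 1 and 1.48-fold in replicate 2, and Mir141 1.56-fold and 1.62-fold. Mir200c, the more abundant neighbour of Mir141, exceeded Mir31 12.2-fold and 12.3-fold. Mir200b, a neighbour of Mir200a, exceeded Mir31 7.81-fold and 7.47-fold, and this was the only one of the 7 ratios that was lower in replicate 2. For these 4 genes the counting intervals of the libraries overlapped. The change of such a ratio between the libraries is the difference of the 2 genes' ratios between the pools. It is small for any gene near the -0.33 of Mir31, such as the neural Mir137 at -0.32.

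The ratios to the surface ectoderm gene Mir205 and to Mir429, which is also of the Mir200 family, were less steady. Mir205 exceeded Mir31 18.7-fold in replicate 1 and 22.9-fold in replicate 2, and Mir429 exceeded it 19.6-fold and 22.8-fold. For both the counting intervals of the libraries did not overlap. Mir203, known from skin differentiation, exceeded Mir31 14.4-fold and 16.6-fold. Its intervals only just overlapped, at a log2 ratio of Mir31 over Mir203 of about -3.95.

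Genes around these 3 were taken from lists of microRNAs known from growth, from bone, and from tooth and palate epithelium. In the growth list, which holds Mir21a and Mir22, all 17 of the other genes found in the tables were detected, from 38.1 to 67180 CPM with a median of 919 CPM, so both Mir21a and Mir22 lay above that median. Of the 17, 2 are numbered copies, the lowest gene among them, whose counts lack any reads placed at several positions. The median of the other 15 was also 919 CPM. The list is led by Mir17, Mir20a at 23448 ± 1001 CPM and Mir93 at 15642 ± 181 CPM, which belong to the proliferation-associated Mir17 family of clusters. Of the 16 others that averaged 100 counts or more, 10 were lower and 6 higher in replicate 2, with a median log2 ratio of -0.03.

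In the bone list, which holds all 3 genes, 23 of the 26 others were detected, with a median of 117 CPM. Mir2861, known from osteoblasts, was at 0 in both libraries. Mir335, Mir214 at 29999 ± 2093 CPM and the cartilage gene Mir140 at 8587 ± 460 CPM led it, and Mir21a came next, followed by Mir22. Mir31 was below 9 of the 23 other detected genes and above 14. Of those 14, 12 are numbered copies (Mir199a-1 and Mir199a-2, for example), whose counts lack any reads placed at several positions, and the other 2 were Mir29a and Mir29c. Among the 11 others without a numbered copy, Mir31 was below 9, and their median was 1287 CPM. Of the 18 others that averaged 100 counts or more, 11 were lower and 7 higher in replicate 2, with a median of -0.11. None of the 21 list genes compared between the pools passed 2-fold. The other 8 had too few counts to be compared, and 2 of them were past 2-fold on a few counts: Mir29b-1 had 1 and 4 counts and Mir29b-2 had 4 and 0.

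In the tooth and palate epithelium list, which holds Mir31, all 11 others were detected, from 378 to 14050 CPM with a median of 5549 CPM. Mir183 and Mir182 of the sensory cluster, at 14050 ± 534 and 13855 ± 1842 CPM, and Mir429 at 8239 ± 458 CPM led it. Mir31 was the second lowest of the 12, just above Mir224 at 378 ± 56.7 CPM, and the ranges of those 2 genes overlapped. In this list 9 of the 11 others were lower in replicate 2, with a median of -0.13. The 11 include all 7 epithelial markers given above, so this count largely repeats theirs. Of the 257 genes, 49.4% were lower in replicate 2. The lists overlap each other and were picked by known roles, so these counts describe them only.

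**Figure D4:**
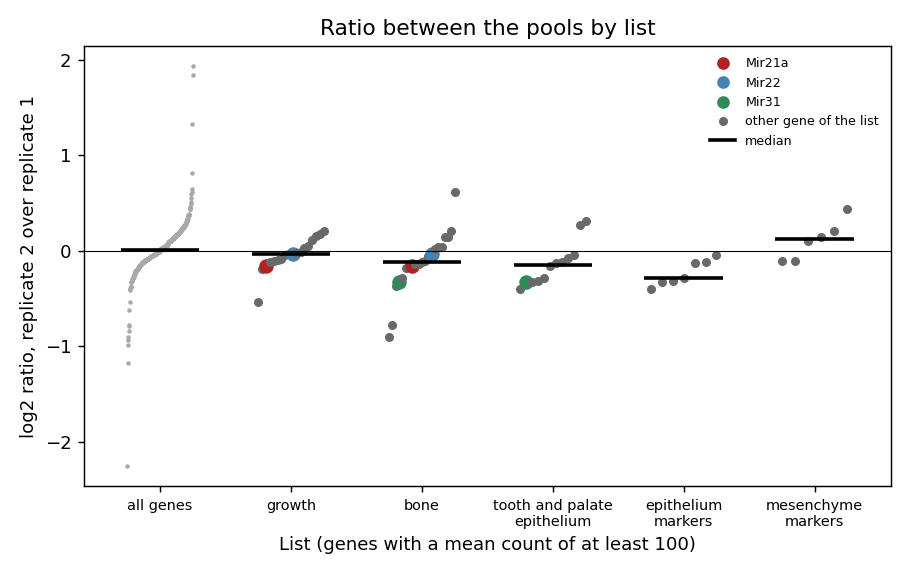
Log2 ratio of replicate 2 over replicate 1 for genes with a mean count of at least 100, for all 257 genes and by list, in ascending order within each column, with black lines for medians. Mir31 at -0.33 is in the lower part of the bone and of the tooth and palate lists. The medians drawn for the growth, bone, and tooth and palate lists include Mir21a, Mir22 or Mir31 where listed, unlike those in the text.

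The genes most like each of the 3 in level and ratio were named by the distance of log2(CPM + 1) over the 2 libraries. Nearest to Mir21a were Mir429 (8239 ± 458 CPM, distance 0.03), Mir205 (8049 ± 165 CPM, 0.09) and Mir140 (8587 ± 460 CPM, 0.10). For Mir22 they were Mir872 (3741 ± 19.2 CPM, 0.05), Mir30d (3456 ± 19.1 CPM, 0.11) and Mir369 (4130 ± 154 CPM, 0.26). For Mir31 they were Mir669o (361 ± 25.8 CPM, 0.20), Mir32 (407 ± 11.2 CPM, 0.21) and Mir325 (392 ± 3.10 CPM, 0.22). With only 2 libraries of 1 tissue, a small distance means a like level in both and no more.

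The exonic position and the lack of neighbours were then set beside all genes. Of the same 257 genes, 45 (17.5%) lay whole inside an exon of a longer gene on the same strand, 105 (40.9%) in an intron, 20 (7.78%) partly in an exon, and 87 (33.9%) in no such gene. Median levels were 450, 580, 235 and 750 CPM, and the ranges of all 4 classes overlapped widely. Without another microRNA gene within 10 kb on the same strand were 115 (44.7%), with a median of 392 CPM, against 965 CPM for the 142 genes with such a neighbour. Both features together held for 22 genes (8.56%), among them all 3 genes described here. In that group of 22, Mir21a was the fourth by mean level, between Mir140 and Mir205, Mir22 the seventh, and Mir31 the 12th. Its highest gene was the endothelial Mir126a at 39731 ± 981 CPM. These classes were looked at after the levels were known.

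**Figure D5:**
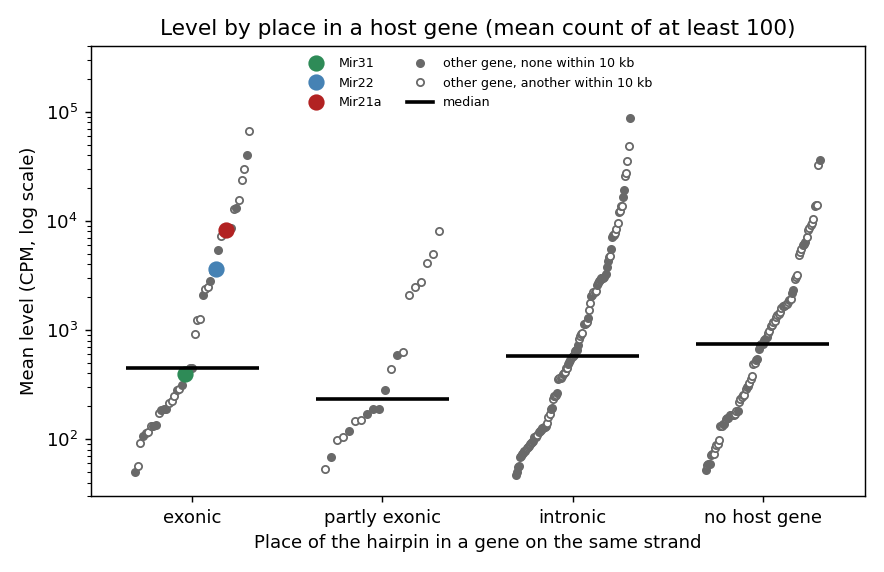
Mean level (CPM, log axis) of the 257 genes with a mean count of at least 100, by where the hairpin lies in a longer gene on the same strand; filled points have no other microRNA gene within 10 kb, and black lines are medians. Mir21a, Mir22 and Mir31 are among the 45 exonic genes, Mir31 just below their median of 450 CPM.

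The opposite strand carried almost nothing at these genes. Mir21a had 0 opposite-strand counts in replicate 1 and 1 in replicate 2, and Mir22 and Mir31 had 0 in both libraries.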

How the data were processed

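Both deposited tables hold raw counts of reads by microRNA gene, made by the authors on mm10 with GENCODE M4, per the accompanying files. Aligner and counter are not given in the sources used here. The sense-strand column was used, read from the layout (96.8% to 97.0% of stranded counts). The 4 lines that name no gene (59.2% and 65.8% of 4755968 and 6781929 reads, of which 22.7% and 20.5% were placed at several positions) were left out, leaving 1941745 and 2319881 sense counts, so 1 count was 0.515 and 0.431 CPM.

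Symbols, exons and positions came from GENCODE M21 (same GRCm38 assembly; 1894 of 1973 identifiers matched without version). Intervals are exact (Clopper-Pearson, 95%) and cover counting error only. Genes were compared between pools at a mean count of at least 100. The labels number the libraries as biological replicates, and their counts differed beyond sampling noise (chi-square 14804, 406 degrees of freedom), but nothing besides pool size says how the pools were made. With 1 group there is no test between conditions. The genes, lists and rules were chosen with earlier results of these data known. Genes named are the 3 genes, seed sharers, the 3 nearest patterns, hosts and neighbours, up to 3 leading genes of each list and the 2 most abundant genes. The relatives of Mir21a, the epithelial pairs, Mir2861, Mir29a, Mir29b-1, Mir29b-2, Mir29c, Mir224, Mir126a, Mir137, Mir142, Mir1a-1 and Mir1a-2 were named after values were seen. Levels and ratios were recomputed with edgeR 4.0.16 (TMM) and DESeq2 1.42.0 factors (R 4.3.3) and other denominators. Other steps used Python 3.11.15, scipy 1.17.1 and matplotlib 3.10.9. Of these, only the 2-fold call and the interval of a ratio were tested on simulated data.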

Additional observations from a re-analysis of the deposited data

How the results depend on the processing

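With counts irrespective of strand, the log2 ratios of Mir21a over Mir22, Mir21a over Mir31 and Mir22 over Mir31 were 1.16, 4.39 and 3.23, and at most 1 count of each gene differs there. Leaving out 1 of the 2 libraries gives the value of the other, from 1.10 to 4.48 over the pairs, and says nothing of stability. The ratios of these genes between pools stayed negative under all 21 alternatives, and 18 stayed inside the counting interval. Per read of the whole library they were -0.41, -0.29 and -0.59, since fewer reads of replicate 2 were assigned. TMM and DESeq2 factors moved no level beyond 1 SD. Without the 10 most abundant genes in the total, the mean levels of Mir21a, Mir22 and Mir31 were 14357, 6396 and 687 CPM, and per read of the whole library they were 3087, 1370 and 148.5, because the denominator changes. With counts irrespective of strand Mir22 was 3534 CPM. The number of genes past 2-fold between the pools was 11 of 257 per read of the whole library and 20 of 363 with a mean count of at least 10. It was 3 with at least 500 and 90 with at least 1 count in each library. Each threshold changes how many genes are compared, so these numbers cannot be set directly beside the 5 of 257. No paired analysis was possible because the libraries form 1 group. Depth limits Mir31 most: its counting interval between the pools spans -0.47 to -0.19.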
